A study of Danio rerio with 23 samples.

Results

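The zebrafish gfi1 family (gfi1aa, gfi1ab and gfi1b) and atoh1 family (atoh1a, atoh1b and atoh1c) were followed through 23 bulk RNA-seq libraries. These 6 genes, out of 31902 features counted in the endodermal libraries, were taken by name as the paralogs of the 2 families, which are linked in secretory and sensory cell differentiation, and they were set out by group with full-length Neurod1 beside its 2 deleted forms. The families were chosen by the levels of gfi1aa and atoh1b in the libraries of the deleted forms against full-length Neurod1, where earlier results were known. Wherever libraries of a deleted form or of full-length Neurod1 are compared, the values of these 2 genes are therefore a description. No p-value is given for them there, and nothing is read from whether a tool called them.

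The series asked which genes Neurod1 and Ascl1a, a pair of bHLH transcription factors of the gut secretory lineage, turn on when they are overexpressed, and what is lost when a conserved stretch of Neurod1 is removed. In the gain-of-function (GOF) experiment, endodermal cells positive for the sox17:dsred reporter were sorted by FACS at 52 hpf from the dissected trunks of about 150 AB strain embryos per library, giving between 2000 and 4000 cells. The embryos were of wild-type genotype and carried no factor (control, n = 3) or a transgene coding for Ascl1a (n = 3), full-length Neurod1 (n = 4), Neurod1 without its ultra-conserved element (Neurod1ΔUCE, n = 3) or Neurod1 without the larger evolutionarily conserved domain that contains it (Neurod1ΔECD, n = 3). Each of the 5 groups, controls included, received heat shocks at 38 hpf and at 48 hpf. The hsp70l promoter expresses the factor throughout the embryo, so the endoderm was not the only tissue exposed, and eGFP is made from the same transcript.

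In the loss-of-function experiment, enteroendocrine cells (EECs) positive for pax6b:GFP were sorted from the guts of about 200 larvae per library at 4 dpf, giving between 1000 and 2000 cells. These larvae were AB wild types (n = 3) or neurod1ΔUCE/ΔUCE homozygotes of the ulg052 allele (n = 4), and they had no factor transgene and no heat shock. In this allele the ultra-conserved element and a few flanking amino acids of the larger domain are missing from the endogenous gene. Each library pooled many animals, and nothing in the labels says whether the libraries of a group came from separate clutches, so the p-values measure only the spread between these libraries. The 2 experiments were normalised separately and differ in age, reporter and heat shock, so their levels stand side by side without a test.

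Gfi1 proteins are zinc-finger transcriptional repressors whose SNAG domain recruits Lsd1 and CoREST, and mammalian Gfi1 is known from goblet and Paneth cells of the gut, hair cells of the inner ear and blood. Zebrafish gfi1aa and gfi1b are known from primitive red blood cells. The study also cites a gfi1aa:GFP reporter that marks zebrafish goblet cells. Atoh1 proteins are proneural bHLH factors that bind E-boxes as dimers with E proteins. In the mouse, Atoh1 starts the intestinal secretory lineage and hair cell formation, and Gfi1 acts downstream of it in both.

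The element removed from Neurod1 is what separates the transgenes, so the designed sequences that set the deletions are shown. The first is the joined end of the Neurod1ΔUCE transgene, taken from the study's primer, with the bases after the deletion in capitals. The next pair made the Neurod1ΔECD transgene by site-directed mutagenesis. The last pair are the CRISPR guides that removed the element from the endogenous gene, with the PAM, read from the transgene primers, in capitals.
Neurod1ΔUCE junction: tcttttgtgcaggccAACCCCAGAACTTTT
Neurod1ΔECD sense primer: agccaggagatgccccctcatat
Neurod1ΔECD antisense primer: cctcaagatttccgaaagagcccaa
sg3: ggtcgggcagaaaagttctgGGG
sg4: ggacctgatgtcttttgtgcAGG

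Read depth was 8364374 to 22301304 counts in genes per endodermal library and 8626863 to 15894943 per EEC library. A count of 3, the floor used here, corresponded to 0.153 to 0.369 CPM (read counts scaled to a common TMM-normalised library size) in the endoderm and to 0.226 to 0.304 CPM in the EECs. These limits cover counting error only. The 17 enteroendocrine marker genes summed to 8412 to 11408 CPM in the EEC libraries and to 41.9 to 169.8 CPM in the control endoderm, and the 14 endodermal genes summed to 2284 to 6195 CPM in the endodermal libraries, although sox17 itself averaged 1.19 CPM or less in each endodermal group. One library stood apart. The feature counting the transgene's neurod1 region reached 1189 CPM in Neurod1ΔUCE replicate 1, against 1.52 and 1.69 CPM in replicates 2 and 3 of that group, 3.95 to 7.32 CPM with Neurod1ΔECD and 19.0 to 53.9 CPM with full-length Neurod1. It also measured 26.2, 177 and 21.8 CPM with Ascl1a, whose transgene codes for no Neurod1, and 1.09 CPM or less in the control, so it is no clean measure of the Neurod1 transgenes. Endogenous neurod1 was also highest in Neurod1ΔUCE replicate 1, at 75.1 CPM against 9.12 and 7.36 CPM in its group. It was at 21.6 to 69.1 CPM with full-length Neurod1. Whether the label and the counting of this library are right was not settled, so the main Neurod1ΔUCE values of the members are also given without it.

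Detection differed between the paralogs. atoh1b was counted in all 23 libraries with 12445 counts in total, and gfi1aa was counted in 20 libraries with 4248 counts. gfi1ab (617 counts) and gfi1b (480 counts) were above the floor of 3 counts in 17 libraries each. atoh1a had 12 counts and atoh1c 25 counts over the whole series. As a result 4 of the 6 members (gfi1aa, gfi1ab, gfi1b and atoh1b) passed the filter on low counts among 18911 genes in the endoderm, and the same 4 among 16154 genes in the EECs.

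gfi1aa was low in control endoderm, at 0.653, 1.44 and 0.588 CPM. It measured 9.64, 0.499, 4.75 and 3.48 CPM with full-length Neurod1. It measured 29.6, 67.6 and 75.9 CPM with Neurod1ΔUCE and 16.98, 38.7 and 51.7 CPM with Neurod1ΔECD. All 6 libraries of the deleted forms were thus above all 4 libraries of full-length Neurod1 and above all 3 controls, whereas the Neurod1 and control libraries overlapped through Neurod1 replicate 2. In the bulk libraries, fewer cells that express a gene and less RNA per cell cannot be told apart.

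The mean gfi1aa level was 57.7 ± 24.7 CPM (SD, n = 3) with Neurod1ΔUCE and 35.8 ± 17.6 CPM (SD, n = 3) with Neurod1ΔECD, against 4.59 ± 3.81 CPM (SD, n = 4) with Neurod1 and 0.892 ± 0.472 CPM (SD, n = 3) in the control. The ratio to the mean of full-length Neurod1 was 12.6 for Neurod1ΔUCE and 7.80 for Neurod1ΔECD. Without Neurod1ΔUCE replicate 1, the Neurod1ΔUCE mean was 71.7 CPM (n = 2) and its ratio 15.6. For both deleted forms together the ratio was 10.2, and the fitted log2 fold change was 3.34 ± 0.65 (SE), or 3.47 without Neurod1ΔUCE replicate 1. Across all genes tested, 0.328% had every library of the deleted forms above every Neurod1 library, and since these libraries chose the gene nothing further is read from this share.

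atoh1b, one of the 3 zebrafish atoh1 paralogs, had a base level in every endodermal group. It measured 12.1, 14.1 and 9.70 CPM in the control, and 18.4, 15.1, 15.4 and 16.5 CPM with full-length Neurod1. It measured 97.9, 129 and 76.9 CPM with Neurod1ΔECD, all above every Neurod1 library. With Neurod1ΔUCE it measured 16.4, 97.1 and 180.2 CPM, so replicates 2 and 3 were high and replicate 1, the library that stood apart, lay within the Neurod1 range.

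The mean atoh1b level was 97.9 ± 81.9 CPM (SD, n = 3) with Neurod1ΔUCE and 101 ± 26.0 CPM (SD, n = 3) with Neurod1ΔECD, against 16.3 ± 1.498 CPM (SD, n = 4) with Neurod1. These means were 6.001 and 6.20 times the Neurod1 mean. Without Neurod1ΔUCE replicate 1, the Neurod1ΔUCE mean was 139 CPM (n = 2), or 8.50 times the Neurod1 mean. The fitted log2 fold change of both deleted forms over Neurod1 was 2.61 ± 0.47 (SE), and it was 2.86 without Neurod1ΔUCE replicate 1. No gene passed a false discovery rate (FDR, Benjamini-Hochberg) of 0.1 in this comparison with edgeR's quasi-likelihood test, a percent called of 0, with 744 genes at an unadjusted p under 0.05 and 29 genes called by DESeq2, gfi1aa and atoh1b among them. Without Neurod1ΔUCE replicate 1, edgeR called 2 genes, 1 of them atoh1b. Nothing is read from the calls of gfi1aa and atoh1b, whose levels in these libraries chose the families.

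**Figure D1:**
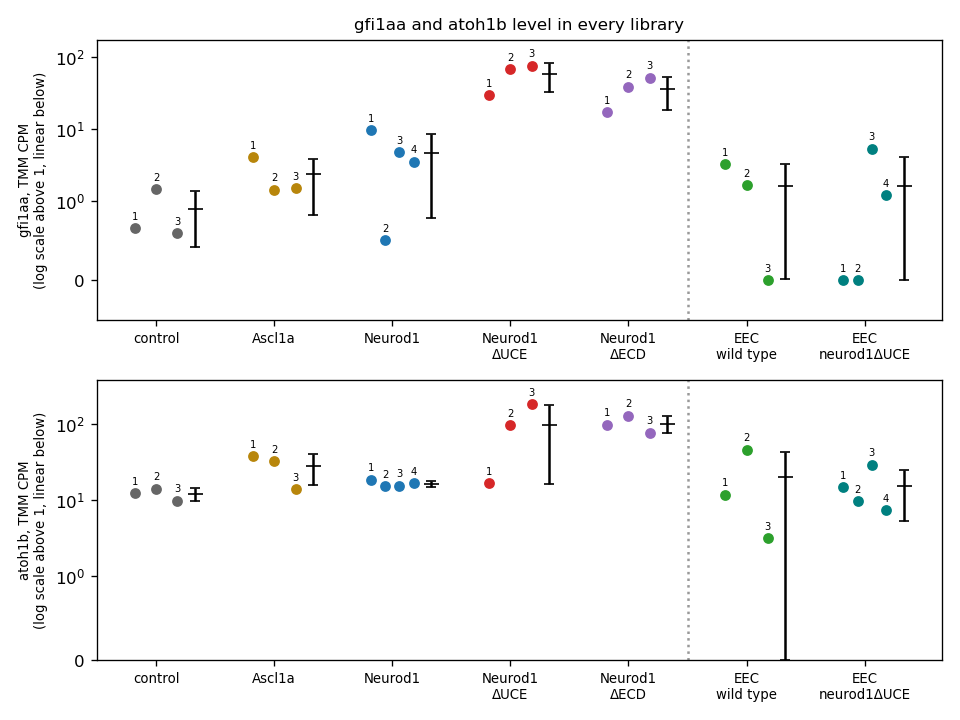
Levels of gfi1aa (top) and atoh1b (bottom) in TMM-normalised CPM, 1 numbered point per library by replicate, with the group mean and SD as a black bar whose lower end stops at 0; the vertical axis is logarithmic above 1 and linear below, and the dotted line separates the endodermal from the EEC libraries. gfi1aa lay between 16.98 and 75.9 CPM in the 6 libraries of the deleted Neurod1 forms and at 9.64 CPM or less with Neurod1, and atoh1b was at 76.9 CPM or more in 5 of those 6 libraries.

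The comparison of each form with the heat-shocked control asked what the factors induced. With full-length Neurod1, none of the 4 tested members was called by edgeR at an FDR of 0.1, where 0.0423% of all genes were. DESeq2 also called none of them. For gfi1aa and atoh1b nothing is read from the lack of a call, since the Neurod1 libraries took part in choosing the families. Neither gfi1ab nor gfi1b had an unadjusted edgeR p under 0.05, as 4.25% of all genes had. gfi1aa averaged 5.15 times the control, with a log2 fold change of 2.38 ± 0.77 (SE). atoh1b averaged 1.36 times the control, a small difference without overlap between the libraries, with a log2 fold change of 0.45 ± 0.53 (SE). Of all genes, 8.15% did not overlap in this comparison.

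With Ascl1a, edgeR and DESeq2 again called 0 of the 4 members, where 0.0159% of all genes were called by edgeR, and atoh1b was the 1 member with an unadjusted p under 0.05, as 6.11% of all genes had. It measured 37.4, 32.4 and 13.9 CPM, so replicates 1 and 2 were above the controls and replicate 3 was level with the highest of them. Its log2 fold change was 1.22 ± 0.57 (SE), with an FDR of 0.802. With only the groups compared it was 1.23 ± 0.42 (SE) and was not called either. gfi1aa measured 4.06, 1.42 and 1.497 CPM with Ascl1a and overlapped the controls, with a log2 fold change of 1.37 ± 0.80 (SE) and an FDR of 0.809.

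With the deleted forms, the fitted log2 fold change of gfi1aa over the control was 6.03 ± 0.90 (SE) for Neurod1ΔUCE and 5.34 ± 0.87 (SE) for Neurod1ΔECD, the group means being 64.6 and 40.1 times that of the control. Without Neurod1ΔUCE replicate 1 the value was 6.34. atoh1b stood at 3.03 ± 0.60 (SE) for Neurod1ΔUCE, 3.53 without replicate 1, and at 3.08 ± 0.60 (SE) for Neurod1ΔECD. edgeR called 1 member, gfi1aa, in each of these comparisons, where 0.0582% of all genes were called with Neurod1ΔUCE and 0.0423% with Neurod1ΔECD. DESeq2 called gfi1aa and atoh1b in both. Since the levels of these 2 genes in these libraries chose the families, nothing is read from their calls. The edgeR call depended on the libraries in the fit: with Neurod1ΔUCE it was lost with only the groups compared, and atoh1b was called as well without Neurod1ΔUCE replicate 1. With Neurod1ΔUCE the gfi1aa call was also lost without control replicate 1, 2 or 3, and with Neurod1ΔECD it was lost without any 1 of the controls or without Neurod1ΔECD replicate 2 or 3. All these comparisons share the same 3 controls.

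Between the deleted forms, gfi1aa was higher on average with Neurod1ΔUCE and atoh1b was close to level, and the libraries overlapped for both, where 5.77% of all genes did not overlap. The log2 difference of Neurod1ΔUCE over Neurod1ΔECD was 0.69 ± 0.71 (SE; 95% interval -0.81 to 2.19) for gfi1aa and -0.05 ± 0.55 (SE; 95% interval -1.22 to 1.12) for atoh1b. Without Neurod1ΔUCE replicate 1 these were 1.00 and 0.45. These intervals leave room for a difference of more than 4-fold in gfi1aa and of more than 2-fold in atoh1b. edgeR called no gene between the deleted forms, a percent called of 0, with 597 genes (3.16%) at an unadjusted p under 0.05, neither gfi1ab nor gfi1b among them, and 1 gene, not a member, called by DESeq2.

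**Figure D2:**
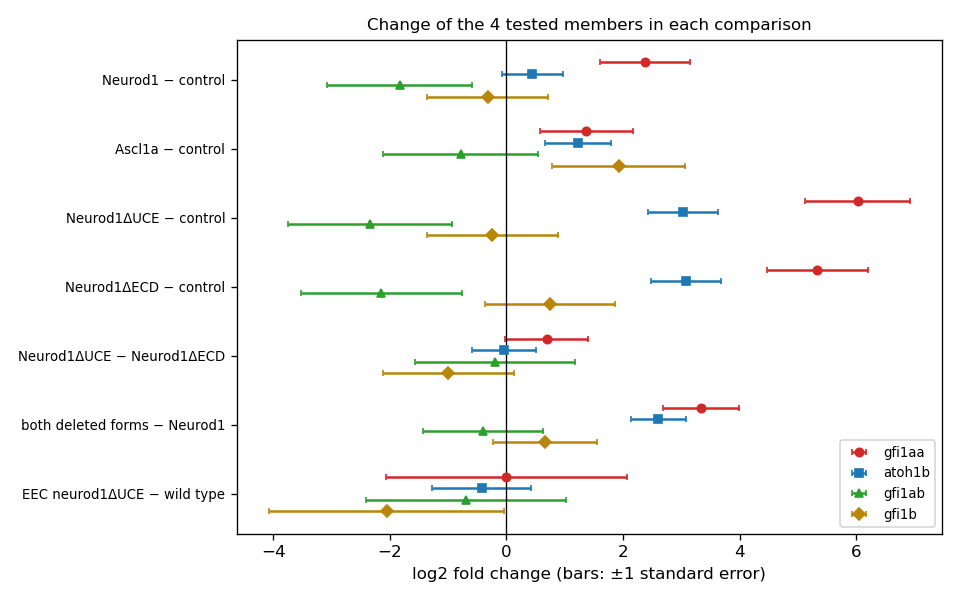
Fitted log2 fold change of the 4 tested members in each comparison, with bars of 1 standard error from edgeR. gfi1aa (circles) and atoh1b (squares) lay to the right of 0 in the comparisons of the deleted forms with the control and with Neurod1, at 6.03 and 3.03 for Neurod1ΔUCE over the control, while gfi1ab and gfi1b lay within about 2 standard errors of 0 throughout.

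gfi1ab, the second gfi1a paralog, did not follow gfi1aa. It measured 2.25, 7.72 and 1.65 CPM in the control and 0.765, 0.0832, 0.740 and 2.70 CPM with Neurod1. It measured 1.301, 0.532 and 0.444 CPM with Neurod1ΔUCE and 1.02, 0 and 1.60 CPM with Neurod1ΔECD. Every library of the deleted forms was below every control, although Neurod1ΔECD replicate 3, at 1.60 CPM, missed the lowest control by very little.

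The log2 fold change of gfi1ab over the control was -2.34 ± 1.41 (SE) for Neurod1ΔUCE, with an edgeR FDR of 0.803 (-2.96 and 0.503 without replicate 1), and -2.14 ± 1.39 (SE) for Neurod1ΔECD, with an FDR of 0.757. Groups without overlap were common in these comparisons, at 10% of all genes for Neurod1ΔUCE and 17.4% for Neurod1ΔECD. For full-length Neurod1 the value was -1.83 ± 1.25 (SE), with an FDR of 1.00. With Ascl1a, gfi1ab was at 0, 2.72 and 3.93 CPM and overlapped the control.

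gfi1b, the blood member of the family, was highest with Ascl1a. It measured 7.01, 3.59 and 4.49 CPM there, all above the controls at 0.0725, 2.96 and 0.941 CPM, while 13.9% of all genes did not overlap in that comparison. The log2 fold change was 1.93 ± 1.14 (SE) and did not pass the test, with an edgeR FDR of 0.809. Without Ascl1a replicate 2, the library with the transgene feature at 177 CPM, it was 2.12 ± 1.26 (SE). No member was called with Ascl1a in that fit either. gfi1b measured 1.91, 1.08, 0.801 and 0.420 CPM with Neurod1 and 0, 0.836 and 2.48 CPM with Neurod1ΔUCE. With Neurod1ΔECD it measured 1.98, 1.47 and 3.20 CPM, and each of these groups overlapped the control.

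Red cell genes were also high in the Ascl1a libraries. All 12 tested genes of the primitive red cell list, which includes the globin genes, had a positive log2 fold change over the control with Ascl1a (median 1.70, against -0.02 over all genes tested), though none was called. The list summed to 5221, 1797 and 2190 CPM in Ascl1a replicates 1, 2 and 3, and to 407, 2000 and 505 CPM in the controls, so Ascl1a replicate 1 and control replicate 2 were highest for the list and for gfi1b in their groups. With Neurod1ΔECD, replicate 3 was highest for both. With Neurod1, however, replicate 4 was highest for the list (1465 CPM) and lowest for gfi1b (0.420 CPM). With Neurod1ΔUCE, replicate 2 was highest for the list and replicate 3 for gfi1b. gata1a, a master regulator of red cells, measured 43.9, 7.11 and 11.6 CPM with Ascl1a and 0.435, 6.37 and 2.47 CPM in the control. The part of red cells in the gfi1b values was not tested.

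The red cell list varied widely among the libraries where gfi1aa was high. With Neurod1ΔUCE it summed to 172, 5394 and 1502 CPM in replicates 1, 2 and 3, and with Neurod1ΔECD to 1471, 389 and 1817 CPM. Neurod1ΔUCE replicate 1 and Neurod1ΔECD replicate 2 were below the lowest control in this sum, and their gfi1aa levels were 29.6 and 38.7 CPM, against 1.44 CPM or less in the control. gata1a was at 0.465 and 0.707 CPM in these 2 libraries. Within the Neurod1ΔUCE group, however, replicate 1 was lowest for both the list and gfi1aa, which was at 67.6 and 75.9 CPM in replicates 2 and 3. In the Neurod1ΔECD group replicate 3 was highest for both, while the lowest library differed. The part of red cells in the gfi1aa values was not tested.

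**Figure D3:**
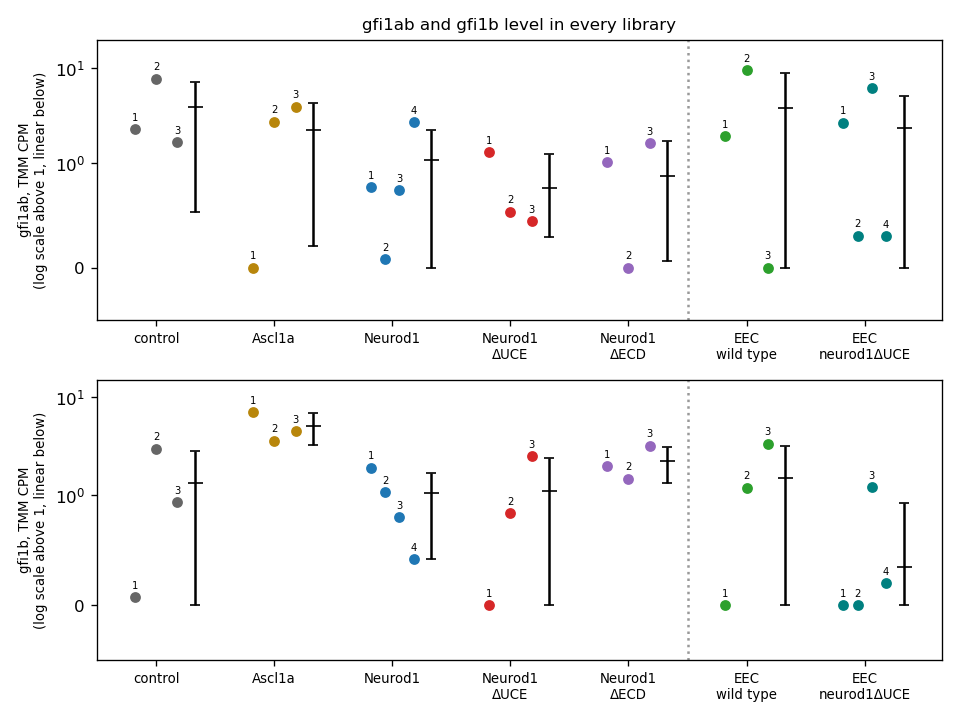
Levels of gfi1ab (top) and gfi1b (bottom) in TMM-normalised CPM, 1 numbered point per library by replicate, with the group mean and SD as a black bar whose lower end stops at 0; the vertical axis is logarithmic above 1 and linear below, and the dotted line separates the endodermal from the EEC libraries. gfi1ab was at 1.60 CPM or less in the 6 libraries of the deleted forms and at 1.65 CPM or more in the controls, and gfi1b was at 3.59 CPM or more in the 3 Ascl1a libraries.

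atoh1a and atoh1c, the remaining atoh1 paralogs, were at or near 0 in the endoderm. atoh1a had 8 counts (0.470 CPM) in control replicate 3, 2 counts in Neurod1ΔECD replicate 3, 1 count each in Neurod1 replicate 1 and Neurod1ΔUCE replicate 1, and none in the other libraries of the series. Control replicate 3 also had the highest summed level of the 10 neural genes in the endoderm, at 310 CPM, against 75.7 CPM or less in the other endodermal libraries, and the part of neural cells in this value was not tested. atoh1c had 1 count each in Neurod1 replicate 3, Neurod1ΔUCE replicate 1 and Neurod1ΔUCE replicate 3. At these depths no difference between endodermal groups was detectable for either gene.

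Across the 16 endodermal libraries, gfi1aa and atoh1b varied together, with a Pearson r of 0.82 on log2(CPM + 1), which placed atoh1b at rank 19 of 18910 genes by likeness to gfi1aa. The points share their libraries and their groups, and the value is a description. Within the deleted forms the order of the libraries was not the same for both genes. Neurod1ΔUCE replicate 1 was lowest and replicate 3 highest of its group for both, whereas Neurod1ΔECD replicate 1 was lowest of its group for gfi1aa (16.98 CPM) but not for atoh1b (97.9 CPM), and replicate 3 was highest for gfi1aa (51.7 CPM) and lowest for atoh1b (76.9 CPM).

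The 5 genes most like gfi1aa by this measure were bckdk (r = 0.91), mfsd4aa (0.89), si:dkey-15h8.17 (0.88), phkg1b (0.87) and gbgt1l3 (0.86). bckdk, the kinase of the branched-chain ketoacid dehydrogenase, averaged 79.4 CPM in the control, 198.5 CPM with Neurod1, 401 CPM with Neurod1ΔUCE and 275 CPM with Neurod1ΔECD. mfsd4aa, a member of the major facilitator superfamily of transporters, averaged 3.06, 5.57, 32.8 and 23.4 CPM in the same order. phkg1b, a catalytic subunit of phosphorylase kinase, averaged 1.18, 0.881, 6.64 and 6.10 CPM in that order.

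The EEC libraries asked whether the same members differ when the element is missing from the endogenous Neurod1, in pax6b:GFP-positive cells at 4 dpf. None of the 4 tested members passed the test: edgeR and DESeq2 called 0, where 0.0186% of all genes were called by edgeR, no member had an unadjusted p under 0.05 (3.7% of all genes did), and all 4 overlapped between genotypes (6.61% of all genes did not). gfi1aa measured 3.20, 1.65 and 0 CPM in the wild type and 0, 0, 5.26 and 1.19 CPM in the mutant. The group means were 1.62 and 1.61 CPM, far below the endodermal cells with a deleted form, and the libraries of each genotype spread from 0 upwards. The log2 fold change was -0.00 ± 2.07 (SE), with a 95% interval of -4.56 to 4.55, so a large difference in either direction was not detectable in these libraries.

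atoh1b measured 11.7, 45.8 and 3.13 CPM in wild-type EECs. It measured 14.6, 9.51, 29.0 and 7.25 CPM in the mutant, within the wild-type range. Its log2 fold change was -0.42 ± 0.85 (SE; 95% interval -2.29 to 1.45), with an edgeR FDR of 1.00. This value depended on wild-type replicate 2, the highest library: without it the log2 fold change was 1.02 ± 0.98 (SE), so the interval sets no firm limit.

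gfi1ab measured 1.90, 9.46 and 0 CPM in wild-type EECs and 2.64, 0.304, 6.17 and 0.298 CPM in the mutant, with a log2 fold change of -0.69 ± 1.72 (SE). gfi1b measured 0, 1.19 and 3.33 CPM in the wild type and 0, 0, 1.20 and 0.199 CPM in the mutant, with a log2 fold change of -2.05 ± 2.02 (SE). Both had an edgeR FDR of 1.00. atoh1c was at 0 in all 3 wild-type libraries and in mutant replicates 1 and 2, and had 11 counts each in mutant replicates 3 and 4 (0.827 and 1.09 CPM), too few for the test.

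Some goblet cell genes moved with atoh1b and gfi1ab between EEC libraries, and others did not. agr2, a disulfide isomerase needed for mucin production, was highest in wild-type replicate 2 (991 CPM) and lowest in wild-type replicate 3 (22.6 CPM), and spdef, a goblet cell transcription factor, was at 13.7 and 0 CPM in these libraries. atoh1b and gfi1ab were also highest and lowest there. However, gfi1b was highest in wild-type replicate 3 (3.33 CPM), and gfi1aa was highest in replicate 1 (3.20 CPM) and at 0 in replicate 3. Among the mutants, replicate 3 was highest for agr2 (221 CPM), spdef (4.44 CPM), atoh1b, gfi1ab, gfi1aa and gfi1b. The whole list of 15 goblet genes summed to 823 to 1558 CPM in the wild type and to 681 to 2207 CPM in the mutant, with the top mutant value in replicate 1. A large part of these sums was foxa3, which is also on the endodermal list. It averaged 295 CPM in the wild type and 893 CPM in the mutant, so the sums do not measure goblet cells alone. Of these 15 genes, 9 were highest of the wild types in replicate 2, whereas among the mutants 8 were highest in replicate 1 and 5 in replicate 3. The mucin gene muc5.3 was lowest of the mutants in replicate 3, at 3.08 CPM against 26.3 to 30.6 CPM. The part of goblet cells in the EEC values was not tested.

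**Figure D4:**
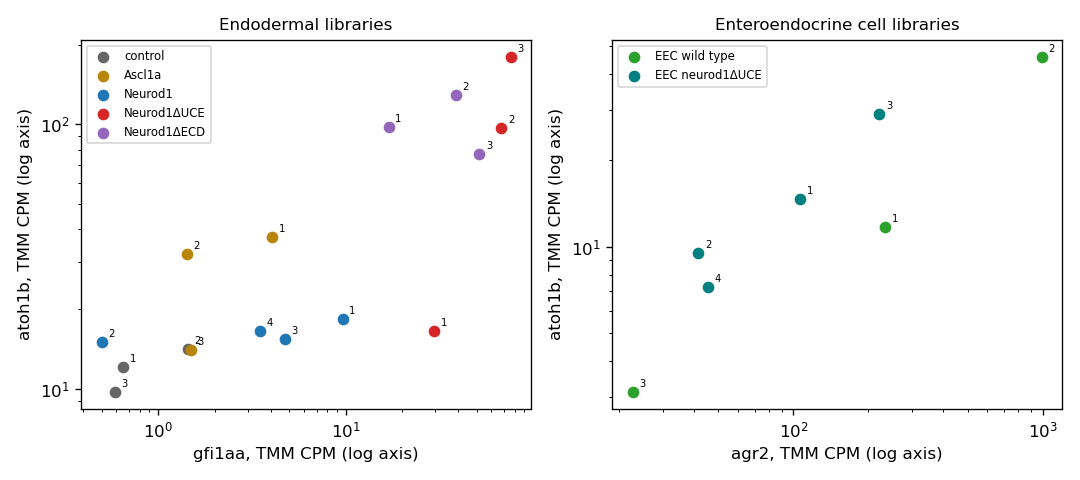
Levels per library on logarithmic axes in TMM-normalised CPM, with points numbered by replicate: atoh1b against gfi1aa in the 16 endodermal libraries (left) and atoh1b against agr2 in the 7 EEC libraries (right). On the left, Neurod1ΔUCE replicate 1 has a gfi1aa level of 29.6 CPM with an atoh1b level of 16.4 CPM, apart from the other 5 libraries of the deleted forms; on the right, wild-type replicate 2 is highest for both genes and wild-type replicate 3 lowest.

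The genes that work with the 2 families, and the cell types that use them, gave no edgeR call beyond the enteroendocrine list. Of all genes, edgeR called 0.0582% or fewer in each of the 7 comparisons, so lists this short would seldom hold a call. None of the 8 tested genes for Gfi1 corepressor subunits (such as kdm1a, which encodes Lsd1), of the 4 E proteins that dimerise with Atoh1, or of the 5 Id genes, which encode inhibitors of E-protein dimers, was called in any of the 7 comparisons by edgeR. The Id list had its highest median with Ascl1a, a log2 fold change of 1.17 over the control. There id1, id2a, id2b and id3 had unadjusted edgeR p-values under 0.05, as 6.11% of all genes had, and FDRs of 0.795 to 0.802. The remaining Id gene, id4, went the other way, averaging 2.61 CPM with Ascl1a and 4.78 CPM in the control. The comparison and these genes were picked after their values were seen. None of the 7 tested hair cell genes in the endoderm, or of the 5 tested in EECs, was called, and pou4f3, the defining hair cell factor that acts with Atoh1 and Gfi1, was at 0 in all 23 libraries.

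No goblet cell gene passed the edgeR test in the endoderm, where 14 were tested in each comparison and 0.0582% of all genes or fewer were called. The median log2 fold change over the control was 0.09 for Neurod1ΔUCE (0.05 without replicate 1) and -0.45 for Neurod1ΔECD, against 0.02 and -0.03 over all genes tested. The list summed to 530 to 747 CPM with Neurod1ΔUCE, 494 to 545 CPM with Neurod1ΔECD and 428 to 612 CPM in the control. Of this, foxa3, also on the endodermal list, averaged 253, 250 and 242 CPM in the same order. spdef was at 1.95, 0.304 and 1.60 CPM with Neurod1ΔUCE and at 0.363, 0.0898 and 0 CPM in the control, so its libraries overlapped. agr2 was at 124, 338 and 253 CPM with Neurod1ΔUCE and at 130, 188 and 158 CPM with Neurod1ΔECD. It measured 111.5, 155 and 118 CPM in the control and 92.7 to 205 CPM with full-length Neurod1. Neurod1ΔUCE replicates 2 and 3 were thus above every control and Neurod1 library, and replicate 1 was not. With Ascl1a it was at 211, 217 and 207 CPM, above every control, where 13.9% of all genes did not overlap.

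Enteroendocrine genes had values in the other direction from gfi1aa between full-length and deleted Neurod1. All 17 tested genes had a negative log2 fold change for the deleted forms against Neurod1 (median -1.07, against 0.01 over all genes tested), though none was called, and all 17 were negative without Neurod1ΔUCE replicate 1 too (median -1.23). Of all 18911 genes tested, 9658 were positive. The study had reported pax4, rfx6, insm1a, insm1b, pax6b, nkx2.2a, fev and endogenous neurod1 of this list as induced by Neurod1 in these libraries. The list was thus not independent of them, and nothing further is read from the count of 17. The summed level of the 17 genes was 409 to 1028 CPM with Neurod1, 263 to 446 CPM with Neurod1ΔUCE, 169 to 300 CPM with Neurod1ΔECD and 41.9 to 169.8 CPM in the control. Against the control, edgeR called pax4, a homeobox repressor of endocrine progenitors, with Neurod1 (FDR of 0.0202), Neurod1ΔUCE (0.0302) and Neurod1ΔECD (0.0526). insm1b, a zinc-finger factor of endocrine cells, passed the threshold with Neurod1 alone (FDR of 0.0208). Its level was 104 to 306 CPM with Neurod1, 86.9 to 133 CPM with Neurod1ΔUCE and 49.3 to 169 CPM with Neurod1ΔECD. All of these were above the controls, at 12.55 to 20.9 CPM, where 8.15%, 10% and 17.4% of all genes did not overlap.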

How the data were processed

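Cells sorted by FACS were amplified by Smart-seq2 with 13 PCR cycles, made into Nextera XT libraries and sequenced as single reads of 75 bases, without molecular identifiers. The deposited files hold raw counts per gene: the authors trimmed the reads, mapped them to GRCz11 with STAR 2.5.4b and counted them with its GeneCounts mode, leaving out reads shared between neurod1 and an added feature for the transgene's neurod1 region. The strand setting is not given in the sources used here, so antisense or overlapping reads cannot be set apart, and reads shared by near-identical copies were not recovered.

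Genes were named from Ensembl-to-symbol and RefSeq tables (29192 of 31902 features named). The members and gene lists were chosen with earlier results of these data known. The members named in every library, the list genes past the threshold in the comparison described (up to 4 per list), the transgene feature, endogenous neurod1 and the 5 genes most like gfi1aa were named by rule; the id genes, gata1a, agr2, spdef, muc5.3, foxa3, sox17 and pou4f3 were named after their values were seen.

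Counts were tested with edgeR 4.0.16 in R 4.3.3 (filterByExpr, TMM, quasi-likelihood test, Benjamini-Hochberg FDR of at most 0.1), with all 16 endodermal libraries in 1 fit and the 7 EEC libraries in another. On simulated data with 200 changed genes, the test called 29% of genes changed 4-fold and 79% of those changed 16-fold for Neurod1 against the control (18911 genes), and 19% and 50% for the EECs (16154 genes). Alternatives were RLE factors, no filter, DESeq2 1.42.0, an FDR of 0.05, only the groups compared, the replicate number as a block, the mean of the deleted forms' coefficients, and leaving out each library. Levels are CPM on TMM-normalised library sizes; libraries of 1 group differed by far more than sampling noise (lowest chi-square divided by its degrees of freedom, 51.4), so each counts once.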

Additional observations from a re-analysis of the deposited data

Results flagged for a closer look

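In the groups of 4 libraries, 3 values lay far from the rest of their group, past a limit that about 1 of 20 groups of normally spread values pass. Counts near 0 are not spread in this way, and a group with only 1 library above 0 always passes, so that rate does not apply here. gfi1b measured 1.20 CPM in replicate 3 of the neurod1ΔUCE EECs, where the next library had 0.199 CPM and the other two had 0. The others rest on 1 count each: atoh1a measured 0.0765 CPM in Neurod1 replicate 1 and atoh1c measured 0.0616 CPM in Neurod1 replicate 3, with 0 in the other Neurod1 libraries.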

How the results depend on the processing

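Of 335 member log2 fold changes recomputed under the alternatives, 291 kept their direction and their side of the threshold. The count of members called with Neurod1ΔUCE over the control, 1 as reported, became 2 (gfi1aa and atoh1b) without the filter and with DESeq2, and 0 with only the groups compared. With Neurod1ΔECD over the control it became 2 without the filter, with DESeq2 and with only the groups compared, and 0 at an FDR of 0.05. For the deleted forms over Neurod1 it went from 0 to 2 with DESeq2. Leaving out 1 library gave 0 to 2, 0 to 1 and 0 to 1 calls in these comparisons; without Neurod1ΔUCE replicate 1, atoh1b was called with Neurod1ΔUCE over the control and with the deleted forms over Neurod1. The cause of these shifts was not tested, and nothing is read from the calls of gfi1aa and atoh1b in these comparisons. In EECs the log2 fold change of gfi1aa changed sign with RLE factors (0.0194), without the filter (0.0283) and with DESeq2 (0.0228). Leaving out 1 library turned the sign of gfi1b for Neurod1 over the control (-0.86 to 1.02), gfi1ab for Ascl1a over the control (-1.45 to 0.20), gfi1b for Neurod1ΔUCE over the control (-1.54 to 1.09), atoh1b (-0.80 to 0.45) and gfi1ab (-0.82 to 0.55) for Neurod1ΔUCE over Neurod1ΔECD, gfi1ab for the deleted forms over Neurod1 (-0.78 to 0.60), and, in EECs, gfi1aa (-2.01 to 0.95), gfi1ab (-1.79 to 1.29) and atoh1b (-0.95 to 1.02); none of these was called. gfi1b could not be fitted in EECs without mutant replicate 3, since it then fell under the filter.

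In the endoderm, libraries with the same replicate number had a median correlation of deviations of 0.10, with 14 of 30 pairs above 0.1, against -0.07 and 21 of 72 for pairs with different numbers. In EECs the median was 0.02, with 0 of 3 pairs above 0.1, against 0.02 and 2 of 9. Since not every pair was above 0.1 and the labels name no shared batch, the numbers were not used as pairs. With the replicate number as a block, 0 members were called with Neurod1ΔUCE over the control and 0 with Neurod1ΔECD over the control. The sign turned under the block for gfi1b with Neurod1 over the control (0.20), gfi1ab with the deleted forms over Neurod1 (0.62), and gfi1ab (0.53) and atoh1b (0.38) in EECs. Depth limited gfi1ab, gfi1b, atoh1a and atoh1c most, since many of their values were near the floor of 3 counts.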

Other observations

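In EECs, 3 of the 5 genes most like gfi1aa in the endoderm were higher in every neurod1ΔUCE library than in every wild-type library, while gfi1aa itself overlapped. bckdk measured 408, 345 and 469 CPM in the wild type and 614, 545, 531 and 619 CPM in the mutant. mfsd4aa measured 1.67, 4.59 and 5.15 CPM in the wild type and 71.8, 139, 118 and 76.1 CPM in the mutant. The study had already reported mfsd4aa as strongly raised in the mutant EECs and as induced specifically by both deleted forms. phkg1b measured 28.0, 30.5 and 15.3 CPM in the wild type and 69.4, 107, 109 and 96.8 CPM in the mutant. gbgt1l3 was lower in every mutant library, at 6.34, 1.42, 0.150 and 4.27 CPM against 10.96, 9.83 and 16.96 CPM. The fifth, si:dkey-15h8.17, overlapped. The 5 genes were named by rule, but their pattern in EECs was singled out after the values were seen. Of all genes, 6.61% did not overlap in this comparison, 3.21% being higher and 3.4% lower in every mutant library.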
